A study of Mus musculus with 24 samples.

Results

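The genes described here are 10 markers of liver zonation among 23972 genes with counts in 24 liver libraries. They were chosen by name, with earlier results of these data known. They comprise 7 pericentral genes, Glul, Oat, Cyp2e1, Cyp1a2, Slc1a2, Rhbg and Axin2, and 3 periportal genes, Gls2, Cyp2f2 and Cdh1. The libraries came from female mice of the floxed line Lmna fl/fl, in which loxP sites surround exons 10 and 11 of Lmna. Controls lacked Cre and Lmna ADKO mice carried Adipoq-Cre, which deletes Lmna in adipocytes and leaves a lipodystrophic animal, so that the hepatocytes of both genotypes keep the gene. All mice were 12 to 14 weeks old at the start, were kept at 22°C on a high-fat diet (60% fat), and were given vehicle or an AAV8 vector for mouse FGF21, a liver hormone, 4 weeks into the diet; livers were taken 8 weeks after the injection. The libraries form 4 groups, vehicle-treated controls (n = 7), FGF21-treated controls (n = 3), vehicle-treated Lmna ADKO (n = 6) and FGF21-treated Lmna ADKO (n = 8). The labels call the treatment a rescue, which was read as FGF21.

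Hepatocytes divide their work along the axis of the lobule, from the portal vein, where oxygen and nutrients enter, to the central vein. Wnt ligands and R-spondin from central vein endothelium keep β-catenin active in the hepatocytes nearest to them, which turns on glutamine synthetase (Glul) and its partners in scavenging ammonia, while cytochrome P450 enzymes extend over a wider pericentral band. Periportal hepatocytes carry out urea synthesis, gluconeogenesis and the release of ammonia from glutamine by glutaminase 2 (Gls2).

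In the GENCODE annotation of GRCm38 all 10 are protein-coding genes. Glul lies at chr1:153899944-153909723, Oat at chr7:132557478-132576398, Cyp2e1 at chr7:140763739-140774987, Cyp1a2 at chr9:57676937-57683703 and Slc1a2 at chr2:102658659-102790784. Rhbg lies at chr3:88242874-88254709, Axin2 at chr11:108920349-108950783, Gls2 at chr10:128194457-128210004, Cyp2f2 at chr7:27119909-27133660 and Cdh1 at chr8:106603351-106670246. Oat, Cyp1a2 and Rhbg are on the minus strand. Genes on the opposite strand share 116 exonic bases with Glul, 189 with Slc1a2, 97 with Gls2 and 274 with Cyp2f2, and whether the counting used strand is not given in the sources used here.

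RefSeq promoters of GRCm38.p6 matched 7 of the 10 genes, namely Glul, Oat, Cyp2e1, Cyp1a2, Slc1a2, Axin2 and Cyp2f2. The 250 bases before each RefSeq start were searched on both strands for CTTTGA, the core of the TCF/LEF motif through which β-catenin acts, and for GCGTG, the core bound by the aryl hydrocarbon receptor; the letters of these motifs do not overlap. CTTTGA occurred in 13.8% of 32851 promoter windows of the same length and GCGTG in 28.2%. None of the 7 genes held GCGTG. Glul, Oat, Axin2 and Cyp2f2 held no CTTTGA either, although Oat was also called lower in Lmna ADKO. Cyp2e1 and Cyp1a2 held 1 match to CTTTGA each and Slc1a2 held 2. The sequences of Glul, a pericentral gene not called lower in Lmna ADKO, and of these 3 genes, which were called lower, are shown 5′ to 3′ on the strand of the gene, up to the first exon base of the annotated gene, with matches in capitals. They lie at chr1:153899679-153899928 (plus strand), chr7:140763569-140763738 (plus strand), chr9:57683704-57683905 (minus strand) and chr2:102706188-102706355 (plus strand), the last inside an intron of the longer Slc1a2 transcripts.
Glul: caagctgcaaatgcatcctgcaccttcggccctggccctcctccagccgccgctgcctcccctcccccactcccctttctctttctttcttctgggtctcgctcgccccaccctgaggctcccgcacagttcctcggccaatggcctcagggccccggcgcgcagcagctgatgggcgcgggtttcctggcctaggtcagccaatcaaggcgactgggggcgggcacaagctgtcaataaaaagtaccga
Cyp2e1: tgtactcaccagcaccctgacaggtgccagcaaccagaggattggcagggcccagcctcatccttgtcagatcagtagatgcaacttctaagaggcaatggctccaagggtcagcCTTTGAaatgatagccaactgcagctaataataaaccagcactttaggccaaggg
Cyp1a2: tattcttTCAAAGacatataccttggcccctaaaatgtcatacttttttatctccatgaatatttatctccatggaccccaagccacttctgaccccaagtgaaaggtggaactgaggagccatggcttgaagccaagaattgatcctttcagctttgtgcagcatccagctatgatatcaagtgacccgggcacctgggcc
Slc1a2: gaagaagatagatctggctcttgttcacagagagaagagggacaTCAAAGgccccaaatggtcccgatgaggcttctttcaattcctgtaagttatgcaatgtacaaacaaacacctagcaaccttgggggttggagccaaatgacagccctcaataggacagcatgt
In this order, the match in Cyp2e1 starts 135 bases before the RefSeq start and reads CTTTGA, the match in Cyp1a2 starts 243 bases before it and reads in the reverse direction, TCAAAG, as does the one shown in Slc1a2, at 206 bases. The second Slc1a2 match, 77 bases before the start, falls in an annotated exon and is not printed.

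Between 19863304 and 21510054 reads per library were assigned to genes, so that depth was nearly equal. In 3 libraries, vehicle-treated control 3, FGF21-treated control 3 and FGF21-treated Lmna ADKO 7, long genes had relatively few reads, with a slope of log2 level on log2 exonic length over 9694 genes of -0.154, -0.289 and -0.331, against -0.109 to 0.128 in the others. Animal numbers had 3 digits in 6 of 7 vehicle-treated controls, 0 of 3 FGF21-treated controls, 1 of 6 vehicle-treated Lmna ADKO and 4 of 8 FGF21-treated Lmna ADKO, and 4 digits in the rest. Lmna was not lower in Lmna ADKO livers (26.7 ± 2.57 CPM, SD, against 18.6 ± 2.47 with vehicle), and since its deletion is in adipocytes this does not check the genotype. Liver Fgf21 spanned 3.14 to 7.40 CPM in FGF21-treated controls and 1.90 to 10.8 CPM in vehicle-treated controls, so it does not mark the treated animals. The paper reports that plasma FGF21 rose after the injection, and disproportionately so in Lmna ADKO. The hepatocyte markers Alb, Ttr, Apoa1 and Serpina1c summed to 64532.5 CPM or more in every library, and the adipocyte markers to at most 3.95 CPM.

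In vehicle-treated animals, 5 of the 10 zonation genes were called lower in Lmna ADKO than in control livers and 0 were called higher, a call being a fold change above 1.5 whose edgeR adjusted p was below 0.05. The 5 genes were Oat, Cyp2e1, Cyp1a2 and Slc1a2 of the 7 pericentral genes and Gls2 of the 3 periportal genes. Over all genes tested 3.36% were called lower and 5.12% higher, but the 10 genes were chosen with earlier results of these data known. The median log2 fold change was -0.69 over the 10 genes and 0.00 over all genes. In bulk tissue, fewer cells of a type and less RNA per cell cannot be told apart. Levels are given in CPM, the reads of a gene scaled to the TMM-adjusted size of its library. Groups without overlap were found for 2 of the 10 genes, Oat and Cyp1a2, and for 3.73% of all genes in this direction.

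**Figure D1:**
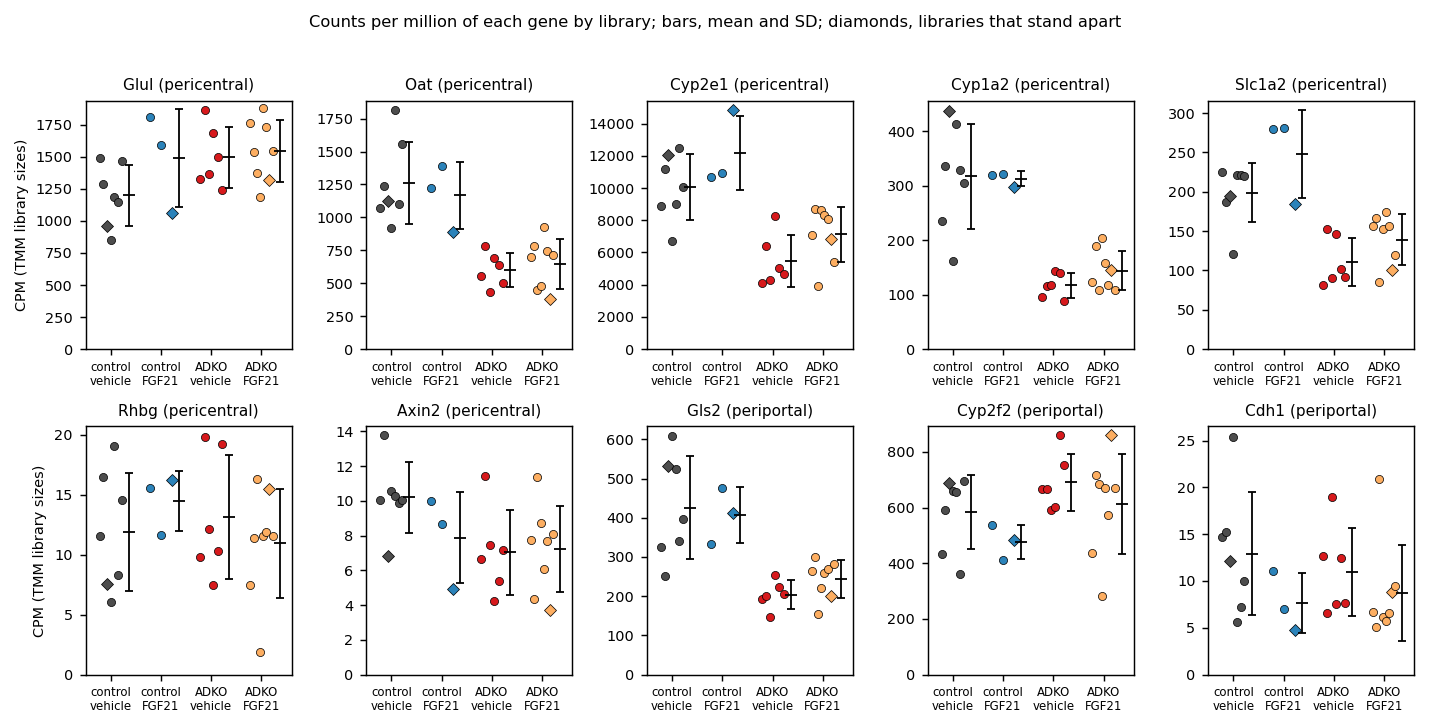
Level of each zonation gene in CPM (y axis, from 0) in each of the 24 libraries, by group (x axis), with the mean and SD of each group as bars and the 3 libraries with few reads on long genes as diamonds. Oat and Cyp1a2 show all 6 vehicle-treated Lmna ADKO libraries under all 7 vehicle-treated controls, whereas the vehicle-treated groups overlap for every other gene.

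Glutamine synthetase, which fixes ammonia into glutamine in the innermost pericentral hepatocytes, did not pass the test. Glul ran from 849 through a median of 1188 to 1487 CPM in vehicle-treated controls, and from 1241 through 1434 to 1864 CPM in vehicle-treated Lmna ADKO. The ranges overlapped, with 3 of 6 Lmna ADKO libraries above every control. Its log2 fold change was 0.32 (95% interval 0.03 to 0.61), with an adjusted p of 0.160 and an unadjusted exact permutation p of 0.0495.

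Its companions in the handling of glutamate and ammonia differed among themselves, Oat and Slc1a2 being lower and Rhbg not called. Oat, ornithine aminotransferase, which makes glutamate from ornithine, ran from 919.6 through 1127 to 1811 CPM in controls and from 432 through 595 to 786 CPM in Lmna ADKO. The groups did not overlap, and the fitted level in Lmna ADKO was 47.6% of control (log2 fold change -1.07 ± 0.19 SE, edgeR adjusted p = 0.000295). Slc1a2, the glutamate transporter GLT-1, ran from 120.5 through 219.9 to 225 CPM in controls and from 81.5 through 96.2 to 152 CPM in Lmna ADKO. Here 4 of 6 Lmna ADKO libraries lay under the lowest control, which was itself apart from the other 6 controls, and the fitted level was 55.7% of control (log2 fold change -0.845 ± 0.18, adjusted p = 0.00180). Rhbg, an ammonium transporter, ran from 6.08 through 11.5 to 19.0 CPM in controls and from 7.45 through 11.2 to 19.8 CPM in Lmna ADKO. These ranges nearly coincided (log2 fold change 0.14, 95% interval -0.55 to 0.82, adjusted p = 0.865). An overlapping gene on the same strand, Gm38392, shares 61.4% of the exonic bases of Rhbg, so that its counts are uncertain, although Gm38392 was assigned 49 reads in all against 6151 for Rhbg.

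Both pericentral cytochromes P450 were lower in Lmna ADKO. Cyp2e1, which oxidizes ethanol and other small molecules, ran from 6717 through 10068 to 12456 CPM in controls and from 4080 through 4849 to 8285 CPM in Lmna ADKO. All but 1 of the 6 Lmna ADKO libraries lay below every control, and the fitted level was 54.2% of control (log2 fold change -0.88 ± 0.19, adjusted p = 0.00180). Cyp1a2, which metabolizes caffeine and is induced through the aryl hydrocarbon receptor, ran from 162 through 329.8 to 438 CPM in controls and from 88.6 through 117 to 143 CPM in Lmna ADKO. The groups did not overlap, and the fitted level of 36.9% of control was the lowest among the 10 genes (log2 fold change -1.44 ± 0.19, adjusted p = 7.67e-06). Axin2, a feedback inhibitor and widely used readout of Wnt/β-catenin signaling, ran from 6.80 through 10.04 to 13.8 CPM in controls and from 4.24 through 6.92 to 11.4 CPM in Lmna ADKO. It was below the control median in 5 of 6 Lmna ADKO libraries but was not called (log2 fold change -0.53, 95% interval -0.99 to -0.08, adjusted p = 0.133). Without the 3 libraries with few reads on long genes it was called lower (log2 fold change -0.60, adjusted p = 0.0471), and its level, centred on the group mean, moved with the length slope over the 24 libraries (r = 0.77); the part of this in the result was not tested.

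Among the periportal genes, Gls2, which releases ammonia from glutamine for the urea cycle, was lower and the other genes were not called. Gls2 ran from 251 through 397 to 609.8 CPM in controls and from 146 through 203 to 254 CPM in Lmna ADKO. Of the 6 Lmna ADKO libraries, 5 lay below every control and the other, at 254 CPM, just above the lowest, with a fitted level of 47.9% of control (log2 fold change -1.06 ± 0.18, adjusted p = 0.000130). Cyp2f2, a P450 enzyme of periportal hepatocytes, ran from 363 through 658 to 695 CPM in controls and from 593 through 666 to 863 CPM in Lmna ADKO, and 2 of 6 Lmna ADKO libraries exceeded every control (log2 fold change 0.24, 95% interval -0.12 to 0.60, adjusted p = 0.443). Cdh1, E-cadherin, a junction protein of periportal hepatocytes and of bile duct cells, ran from 5.605 through 12.2 to 25.4 CPM in controls and from 6.62 through 10.1 to 19.0 CPM in Lmna ADKO, the Lmna ADKO range lying inside that of the controls (log2 fold change -0.23, 95% interval -0.95 to 0.48).

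Leaving out any 1 library, Oat, Cyp2e1, Cyp1a2, Slc1a2 and Gls2 were called lower in all 13 fits, with Cyp1a2 between -1.55 and -1.34 and Slc1a2 between -0.96 and -0.77 on the log2 scale. With the digits of the animal number, the number series, as a covariate, the same 5 genes were called (log2 fold changes of -1.22 for Oat, -0.96 for Cyp2e1, -1.38 for Cyp1a2, -0.94 for Slc1a2 and -1.10 for Gls2); no comparison within 1 number series was made, since each holds a single library of one of these groups. The 6 cholangiocyte markers, of which Spp1 made up most of the sum, totalled 27.1 to 51.2 CPM in vehicle-treated controls and 85.8 to 196 CPM in vehicle-treated Lmna ADKO, and the 4 hepatocyte markers summed to 74324 to 131685 CPM and 65189 to 99877 CPM; their part in the results was not tested.

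Among animals given FGF21, the same 5 genes were called lower in Lmna ADKO than in control livers and 0 were called higher, beside 1.26% of all genes called lower and 1.61% higher. These groups share no library with the vehicle groups, but the spread behind both sets of p-values came from 1 fit of all 24 libraries. The 10 genes were also chosen with earlier results of these data known. The median log2 fold change was -0.57 over the 10 genes and 0.02 over all genes. In 4 of the 10 genes, Cyp2e1, Cyp1a2, Slc1a2 and Gls2, all 8 Lmna ADKO libraries lay under all 3 controls, which was so for 2.37% of all genes.

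Cyp1a2 stood at 320.0, 321 and 298 CPM in the 3 FGF21-treated controls, and ran from 109 through 135 to 204 CPM in FGF21-treated Lmna ADKO. The 3 controls were nearly equal, and the fitted level in Lmna ADKO was 46.1% of theirs (log2 fold change -1.12 ± 0.21, edgeR adjusted p = 0.00286). Cyp2e1 stood at 10717, 10966 and 14851 CPM in controls and ran from 3905 through 7582 to 8699.8 CPM in Lmna ADKO, 58.5% of control (log2 fold change -0.77 ± 0.22, adjusted p = 0.0449). The highest control was library 3, 1 of the 3 with few reads on long genes.

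Oat stood at 1224, 1387 and 889.5 CPM in FGF21-treated controls and ran from 382 through 709 to 928 CPM in Lmna ADKO, 55.6% of control (log2 fold change -0.85 ± 0.22, adjusted p = 0.0265). Only 1 of 8 Lmna ADKO libraries reached above the lowest control, which was library 3. Slc1a2 stood at 280.1, 280.8 and 184 CPM in controls and ran from 85.9 through 155 to 175 CPM in Lmna ADKO, 56.1% of control (log2 fold change -0.83 ± 0.21, adjusted p = 0.0209). Gls2 stood at 333, 475 and 413 CPM in controls and ran from 155 through 262 to 299 CPM in Lmna ADKO, 59.9% of control (log2 fold change -0.74 ± 0.21, adjusted p = 0.0400).

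The other 5 genes were not called with FGF21. Glul stood at 1808, 1592 and 1065 CPM in controls and ran from 1188 through 1544 to 1882 CPM in Lmna ADKO, inside nearly the same span (log2 fold change 0.05, 95% interval -0.30 to 0.41). Rhbg stood at 15.6, 11.6 and 16.2 CPM in controls and ran from 1.84 through 11.6 to 16.3 CPM in Lmna ADKO (log2 fold change -0.41, 95% interval -1.23 to 0.42). Axin2 stood at 9.98, 8.69 and 4.95 CPM in controls and ran from 3.70 through 7.72 to 11.4 CPM in Lmna ADKO (log2 fold change -0.13, 95% interval -0.68 to 0.42). For Glul and Axin2 the lowest FGF21-treated control was library 3. Cyp2f2 stood at 536, 413 and 482.3 CPM in controls and ran from 283 through 669.8 to 861 CPM in Lmna ADKO, with 6 of 8 above every control (log2 fold change 0.36, 95% interval -0.09 to 0.81). Cdh1 stood at 11.1, 7.04 and 4.77 CPM in controls and ran from 5.08 through 6.65 to 20.9 CPM in Lmna ADKO (log2 fold change 0.19, 95% interval -0.72 to 1.09).

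The FGF21-treated controls numbered 3, and the calls changed between fits for reasons that were not tested. When only the 2 groups compared were fitted, when the digits of the animal number were a covariate, when only the 3 controls and 4 Lmna ADKO mice with 4-digit numbers were compared, or without FGF21-treated control 2, only Cyp1a2 was called of the 10 genes, and the log2 fold changes of Oat (-0.86, -0.74 and -0.76 in the first 3 of these fits), Cyp2e1 (-0.78, -0.72 and -0.77), Slc1a2 (-0.84, -0.77 and -0.85) and Gls2 (-0.75, -0.71 and -0.69) stayed negative. Without the 3 libraries with few reads on long genes, Oat, Cyp1a2 and Slc1a2 were called, while Cyp2e1 (-0.59, adjusted p = 0.278) and Gls2 (-0.69, adjusted p = 0.197) were not. Leaving out any 1 library, Cyp1a2 was called in all 11 fits, Oat and Slc1a2 in 9 each, Gls2 in 6 and Cyp2e1 in 5. The cholangiocyte markers, again mostly Spp1, summed to 32.3 to 38.5 CPM in FGF21-treated controls and 50.4 to 242 CPM in FGF21-treated Lmna ADKO. Of the 6 markers 0 were called by edgeR and 1 by DESeq2, and their part in these results was not tested.

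**Figure D2:**
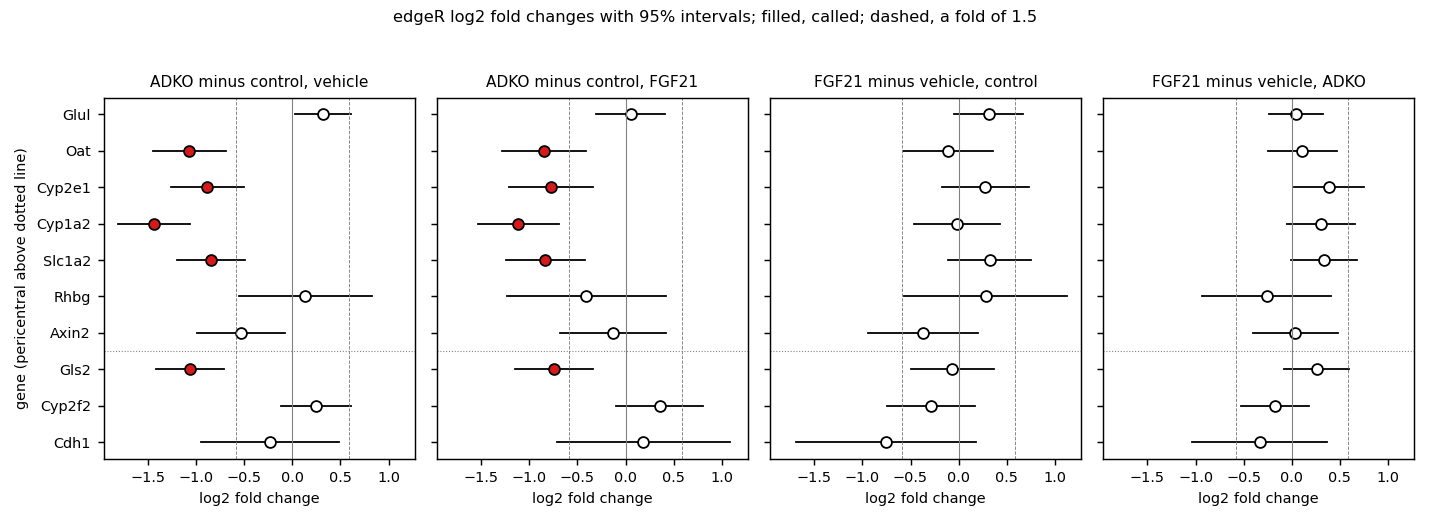
edgeR log2 fold changes (x axis) of the 10 genes (y axis) in 4 comparisons, with 95% intervals as lines, called genes filled and dashed lines at a fold of 1.5. Oat, Cyp2e1, Cyp1a2, Slc1a2 and Gls2 are filled in both comparisons of Lmna ADKO with control and no gene is filled in the comparisons of FGF21 with vehicle.

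FGF21 against vehicle gave no call among the 10 genes in either genotype. In controls, 0 of 10 were called by edgeR, 0 had an unadjusted p under 0.05, and 0 were called by DESeq2, beside 0.0542% of all genes called by edgeR. The log2 fold changes ran from -0.75 for Cdh1 (95% interval -1.69 to 0.18) to 0.32 for Slc1a2 (95% interval -0.11 to 0.75), and that of Glul was 0.31 (95% interval -0.04 to 0.67). In Lmna ADKO, 0 of 10 were called by edgeR, beside 0.0% of all genes, 1 had an unadjusted p under 0.05, and 0 were called by DESeq2. The largest log2 fold change was that of Cyp2e1, 0.39 (95% interval 0.02 to 0.75, adjusted p = 0.704), with 3 of 8 FGF21-treated libraries above every vehicle-treated library and 1 below them all. Slc1a2 followed at 0.33 (95% interval -0.01 to 0.68), Cyp1a2 at 0.30 (95% interval -0.05 to 0.66) and Gls2 at 0.26 (95% interval -0.08 to 0.60). Glul and Axin2 lay at 0.04 (95% intervals -0.24 to 0.33 and -0.40 to 0.48). The intervals of the 10 genes in Lmna ADKO reached from -1.03 to 0.75.

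The difference between genotypes in the FGF21 effect was tested as an interaction. It was called for 0 of 10 genes by edgeR, beside 0.00417% of all genes, with 0 at an unadjusted p under 0.05 and 0 called by DESeq2. Interaction estimates ran from -0.54 for Rhbg to 0.42 for Cdh1 on the log2 scale, with that of Gls2 at 0.32 ± 0.28 (SE) and that of Slc1a2 at 0.01 ± 0.28.

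Glul and Gls2, which make and break glutamine at the opposite ends of the lobule, were also read as a difference of log2 CPM in each library, with no test. Both were chosen with earlier results of these data known. Gls2 was called lower in Lmna ADKO and Glul was not called, so the difference carries the lower Gls2 level and is not a further result. No share over other gene pairs was computed to set beside this difference. The difference averaged 1.53 ± 0.705 (SD, n = 7) in vehicle-treated controls and 2.88 ± 0.274 (n = 6) in vehicle-treated Lmna ADKO, where the lowest library, at 2.59, lay above the highest control, at 2.36. With FGF21 it averaged 1.85 ± 0.545 (n = 3) in controls and 2.67 ± 0.260 (n = 8) in Lmna ADKO, with ranges of 1.37 to 2.44 and 2.36 to 3.15 that overlapped. Of the 3 periportal genes, Cyp2f2 and Cdh1 were not called, and Cdh1 varied with the summed cholangiocyte markers (r = 0.62). The mean of the 7 centred pericentral genes minus that of all 3 periportal genes differed in the other direction. With vehicle it averaged 0.04 ± 0.592 in controls and -0.26 ± 0.366 in Lmna ADKO, with ranges of -1.14 to 0.58 and -0.56 to 0.39 that overlapped. With FGF21 it averaged 0.48 ± 0.0493 in controls and -0.03 ± 0.313 in Lmna ADKO, and the ranges of 0.45 to 0.54 and -0.50 to 0.27 did not overlap. These ranges rest on 3 controls, and no share over other sets of genes was computed.

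**Figure D3:**
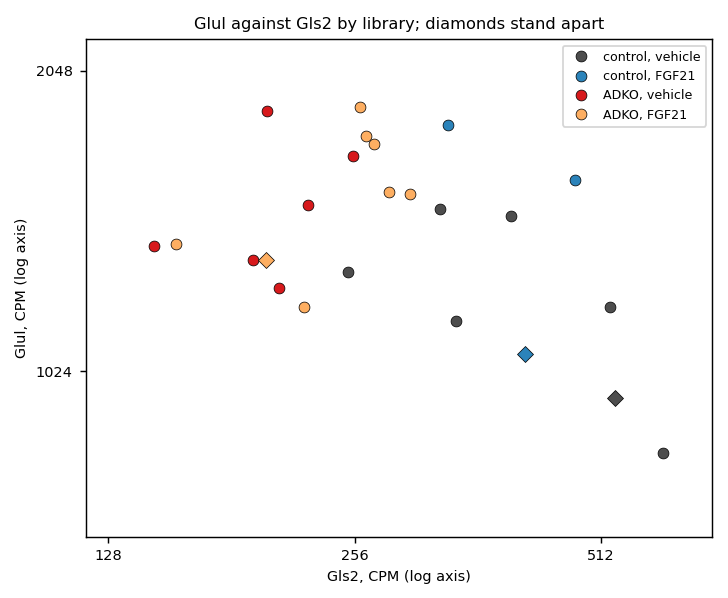
Glul (y axis, CPM, log axis) against Gls2 (x axis, CPM, log axis) in each of the 24 libraries, colored by group, with the 3 libraries with few reads on long genes as diamonds. Lmna ADKO libraries lie mostly to the left, at 146 to 299 CPM of Gls2, and controls mostly to the right, at 251 to 609.8 CPM. The genotypes overlap in both Gls2 and Glul.

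Per kilobase of exonic sequence, Cyp2e1 had the highest level of the 10 genes in all 4 groups, at 4659 ± 944 CPM per kb in vehicle-treated controls and 2527 ± 746 in vehicle-treated Lmna ADKO. In vehicle-treated controls Oat (534 ± 132 CPM per kb) came before Glul (361 ± 71.9), Cyp2f2 (289 ± 65.6), Cyp1a2 (158 ± 47.7) and Gls2 (123 ± 37.8), and in this run from Oat to Gls2 each gene overlapped the next. In vehicle-treated Lmna ADKO Glul (450.4 ± 71.4 CPM per kb) and Cyp2f2 (341 ± 50.4) came before Oat (254 ± 55.4), again with overlap between neighbours. Slc1a2, Rhbg, Cdh1 and Axin2 were the lowest in every group, from 15.1 ± 2.87 CPM per kb for Slc1a2 to 1.85 ± 0.368 for Axin2 in vehicle-treated controls.

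Correlations within groups were taken over the 24 libraries on log2 CPM with the group mean removed, and are descriptions, since the genes share the scaling and length slope of each library. Among the 21 pairs of pericentral genes the median r was 0.22 (0.40 without the 3 libraries with few reads on long genes) and 6 exceeded 0.5, among the 21 pairs of a pericentral and a periportal gene the median was -0.13, and among the 3 periportal pairs it was 0.18. Glul varied with Slc1a2 (r = 0.73, Spearman's rho = 0.73) and with Oat (r = 0.71, rho = 0.67), and Oat with Slc1a2 (r = 0.75). Cyp2e1 varied with Cyp1a2 (r = 0.66) and Slc1a2 (r = 0.70), but less with Glul (r = 0.22, and 0.47 without the 3 libraries with few reads on long genes). Slc1a2 thus varied both with Glul and Oat and with the P450 genes. Axin2 had r between -0.43 (Cyp2e1) and 0.26 (Glul) with these 5 genes, and without those 3 libraries all 5 values were negative, with -0.0952 for Glul, -0.33 for Oat and -0.31 for Slc1a2.

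**Figure D4:**
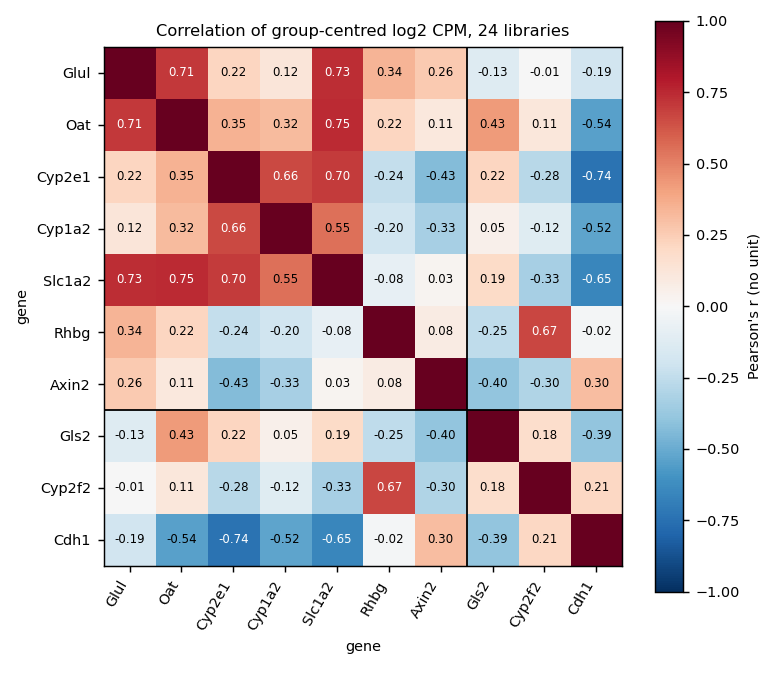
Pearson correlation (color and number) between each pair of the 10 genes (both axes), on log2 CPM centred on the group mean over the 24 libraries; lines separate the pericentral from the periportal genes. Glul, Oat and Slc1a2 are paired at 0.71 to 0.75, and Cdh1 is negative against Cyp2e1 (-0.74) and Slc1a2 (-0.65).

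Cdh1 had r = -0.74 with Cyp2e1, -0.65 with Slc1a2, -0.54 with Oat and -0.52 with Cyp1a2. With the other pericentral genes it had r = -0.19 for Glul, -0.016 for Rhbg and 0.30 for Axin2. The summed cholangiocyte markers, whose cells also express Cdh1, had r = 0.62 with Cdh1 and -0.67 with Cyp2e1, and the summed hepatocyte markers had r = -0.42 and 0.57 with them; their part was not tested. FGF21-treated Lmna ADKO library 3 had the highest cholangiocyte sum (242 CPM) and, within its group, the lowest Cyp2e1 (3905 CPM) and Slc1a2 (85.9 CPM). Cyp2f2 was related to Rhbg (r = 0.67, rho = 0.45) rather than to the other periportal genes (r = 0.18 with Gls2 and 0.21 with Cdh1). The library lowest in both was FGF21-treated Lmna ADKO 4, at 283 CPM for Cyp2f2 and 1.84 CPM for Rhbg.

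Over 12492 genes whose mean log2 CPM was 0 or more, the 5 most like Glul across the 24 centred libraries were Add3 (r = 0.82), Klhl7 (0.82), Rnf115 (0.80), Erap1 (0.79) and Ugt3a2 (0.79), with Slc1a2 at rank 28 and Oat at rank 44. The 5 most like Gls2 were Ass1 (r = 0.92), Gm5424 (0.86), Sqor (0.82), Hal (0.80) and Echdc3 (0.78). Ass1, argininosuccinate synthase of the urea cycle, and Hal, histidine ammonia-lyase, are themselves periportal enzymes; Gm5424 is nearly identical in sequence to Ass1, so that reads may have been split between them. Glul and Gls2 were close to unrelated (r = -0.13).

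Other genes of both zones were counted from lists chosen by name, also with earlier results of these data known. For this and the following lists, the shares of all genes called lower and higher were 3.36% and 5.12% with vehicle. With FGF21 these shares were 1.26% and 1.61%. Median log2 fold changes over all genes were 0.00 and 0.02. Among the 14699 genes kept by a filter on low counts, 820 were called lower and 1171 higher with vehicle. In vehicle-treated animals, 6 of 28 further pericentral genes were called lower in Lmna ADKO and 5 higher, with a median log2 fold change of -0.12. The lower ones were led by Cyp2a5 (-1.07, adjusted p = 0.0353), a coumarin hydroxylase, Nr1i3 (-1.004, adjusted p = 0.00157), the nuclear receptor CAR, and Rgn (-0.93, adjusted p = 0.00470), regucalcin. The higher ones were led by Aldh1a1 (1.31, adjusted p = 0.000122), a retinaldehyde dehydrogenase, Slc22a3 (1.25, adjusted p = 0.000340), an organic cation transporter, and Entpd5 (0.83, adjusted p = 5.22e-05), a nucleotidase. Further pericentral genes were thus called in both directions, and without the 3 libraries with few reads on long genes Cyp2a5 was not called at a log2 fold change of -0.98. With the number series as a covariate 6 were called lower and 3 higher.

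Of 30 further periportal genes, 11 were called lower and 1 higher, with a median log2 fold change of -0.42. Sult5a1 (-2.63, adjusted p = 0.00461, at 0.521 CPM in Lmna ADKO), Igfals (-1.54, adjusted p = 1.59e-06), the acid-labile subunit that carries IGF1 in blood, and Hal (-1.06, adjusted p = 0.000531) had the lowest values among those called. Hsd17b13, a lipid droplet enzyme, was the 1 called higher (0.65, adjusted p = 0.0199), and Itih4 (-0.65) and Otc (-0.66, adjusted p = 0.00256), the urea cycle's ornithine transcarbamylase, were the called genes nearest to it; Otc was not called without the 3 libraries with few reads on long genes (-0.58). With the number series as a covariate 12 were called lower and 0 higher, Hsd17b13 standing at 0.46. With FGF21, 1 further pericentral gene was called higher, Aldh1a1 (1.13, adjusted p = 0.0202), and 4 lower, Nr1i3 (-1.30), Lhpp (-0.75), Slc16a10 (-0.74) and Pon1 (-0.73), while of the periportal genes Fads1 was called higher (0.89, adjusted p = 0.00834) and Igfals lower (-0.83, adjusted p = 0.0206). Without the 3 libraries with few reads on long genes, of these 7 only Aldh1a1 was called, although the others kept their direction (Nr1i3 -1.10, Slc16a10 -0.87, Lhpp -0.63, Pon1 -0.54, Fads1 0.85 and Igfals -0.65). With the number series as a covariate Aldh1a1, Nr1i3 and Fads1 were called.

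Of 11 further targets of Wnt/β-catenin signaling, 5 were called lower in vehicle-treated Lmna ADKO, Tbx3 (-1.31, adjusted p = 0.00132), Notum (-1.18, adjusted p = 2.17e-07), Rnf43 (-0.76), Lgr5 (-0.70) and Sp5 (-0.67), and 1 was called higher, Tnfrsf19 (1.09, adjusted p = 2.26e-05), with a median log2 fold change of -0.67. When the number series was added to the fit, Rnf43 (-0.57) and Lgr5 (-0.63) were not called and Nkd1 (-0.67) was. Notum, a secreted enzyme that inactivates Wnt ligands, averaged 27.1 ± 4.202 CPM in Lmna ADKO (n = 6) and 61.3 ± 9.39 CPM in controls (n = 7). With FGF21, Notum (-1.05, adjusted p = 5.02e-05) and Nkd1 (-0.60, adjusted p = 0.0204) were called lower and Tnfrsf19 higher (0.78, adjusted p = 0.0265), and of these only Notum was called without the 3 libraries with few reads on long genes, where Nkd1 stood at -0.60 and Tnfrsf19 at 0.79 and Lgr5 (-1.21) was also called. With the number series as a covariate, too, only Notum was called. Glul, itself a target of this pathway, stood at 0.32 on the same log2 scale with vehicle.

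Of 24 ligands, R-spondins and transducers of the pathway, 3 were called lower with vehicle and 0 higher. They were the receptors Fzd8 (-1.28, adjusted p = 0.000125) and Fzd7 (-0.63, adjusted p = 0.00366), and Wif1, a secreted inhibitor with so few reads (0.0613 CPM in Lmna ADKO and 0.403 CPM in controls) that no fold is given. Under the number-series covariate only Fzd8 was called (-1.16), with Fzd7 at -0.50. Rspo3, the R-spondin of the central vein, had a log2 fold change of 0.06 ± 0.13 (SE) and Ctnnb1, β-catenin, one of 0.14 ± 0.11. With FGF21, 0 of the 24 were called by edgeR or DESeq2, and 4 had an unadjusted p under 0.05.

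**Figure D5:**
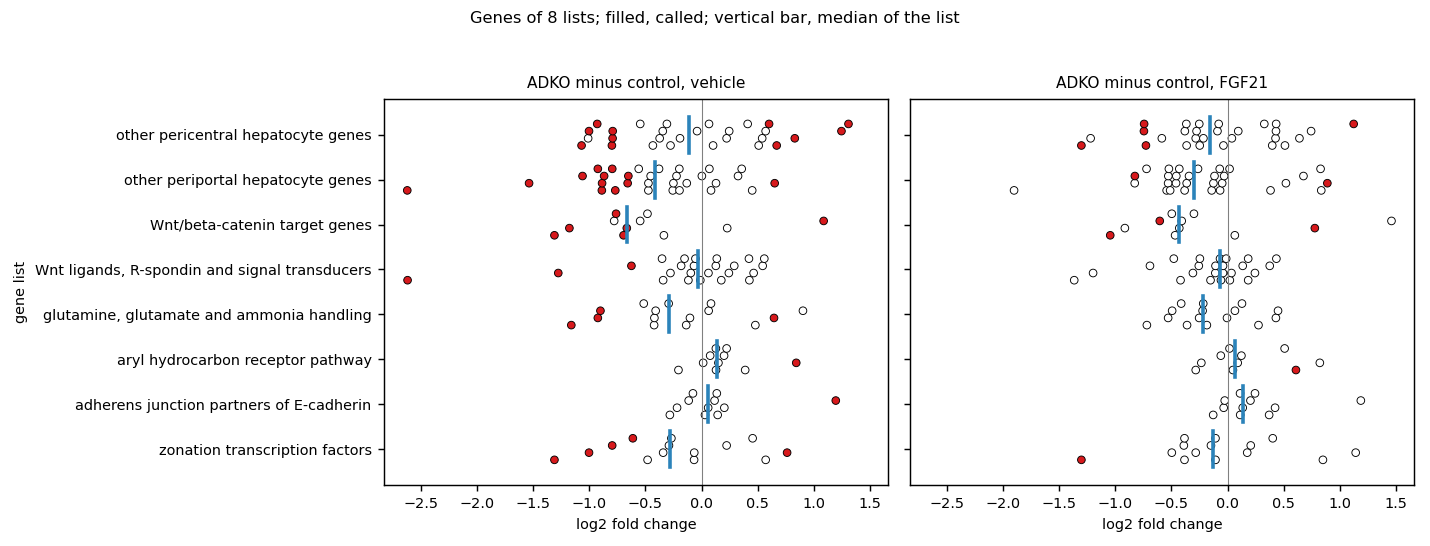
edgeR log2 fold changes (x axis) of the genes in 8 lists (y axis), Lmna ADKO minus control with vehicle (left) and with FGF21 (right); each point is 1 gene, filled when called, and the vertical bar is the median of the list. With vehicle the medians of the Wnt/β-catenin targets (-0.67) and of the further periportal genes (-0.42) lie lowest.

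Around the ammonia genes, 15 of 16 listed genes of glutamine, glutamate and ammonia handling had counts, and with vehicle 3 were called lower and 1 higher. Got1, an aspartate aminotransferase, stood at a log2 fold change of -1.16 (adjusted p = 0.0242), Cps1, carbamoyl phosphate synthetase, which starts the urea cycle, one of -0.93 (adjusted p = 0.00155) and Slc38a3, the glutamine transporter SNAT3, one of -0.90 (adjusted p = 0.000257), while Aldh18a1 was at 0.65 (adjusted p = 0.0211). Under the number-series covariate Got1 (-1.14) was not called and Prodh (-0.84), proline dehydrogenase, was. Glud1, glutamate dehydrogenase, was at 0.06 ± 0.11 (SE). With FGF21, 0 of 15 were called by edgeR, 3 had an unadjusted p under 0.05, and 1 was called by DESeq2.

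Beside the difference in Cyp1a2, 1 of 10 genes of the aryl hydrocarbon receptor pathway was called, Nqo1, a quinone reductase, which was higher in Lmna ADKO with vehicle (0.84, adjusted p = 3.64e-05) and with FGF21 (0.61, adjusted p = 0.0292). Cyp1a1, a target of the same receptor, stood at a log2 fold change of 0.15 ± 0.30 (SE) with vehicle, at 0.758 CPM in Lmna ADKO. Of 11 adherens junction partners of E-cadherin, Vcl, vinculin, was called higher with vehicle (1.20, adjusted p = 0.0486, but not called with the number series as a covariate, at 1.33) and none with FGF21, where 4 had an unadjusted p under 0.05 and DESeq2 called 0.

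Among 14 transcription factors linked to zonation, 4 were called lower with vehicle, among them Tbx3 and Nr1i3, given above, and Foxa2 (-0.80, adjusted p = 0.00347, not called without the 3 libraries with few reads on long genes, at -0.58), and 1 higher, Tead1 (0.76, adjusted p = 0.00111), a partner of YAP. Adding the number series to the fit left 2 called lower, Tbx3 and Nr1i3, with Foxa2 at -0.65. Hnf4a, a regulator of hepatocyte identity, had a log2 fold change of -0.27 ± 0.15 (SE). Nr1i3 was the 1 called with FGF21, and was not called without those 3 libraries. FGF21 against vehicle gave no edgeR call in any of the 8 lists in either genotype. DESeq2 gave 1, among the further pericentral genes in Lmna ADKO. At an unadjusted p under 0.05 there were 2 of 28 further pericentral and 3 of 30 further periportal genes in controls, and 6 and 8 in Lmna ADKO. The share of all genes at this unadjusted threshold is not given here, so no excess is read from such counts in any list.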

How the data were processed

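RNA from 24 female mouse livers was sequenced. The authors deposited whole-number counts of reads per gene for 23972 Ensembl genes, with genes named from GENCODE M21. The submitters' processing notes name cutadapt 4.8, FastQC 0.11.8, STAR 2.7.8a, RSEM 1.3.3 and GRCm38, without saying which step made the counts. Groups followed the labels, which give each library its own animal number, and p-values measure the spread between these animals.

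All genes and libraries entered 1 edgeR 4.0.16 quasi-likelihood fit of 4 groups (TMM scaling, R 4.3.3), with Benjamini-Hochberg adjustment over 23972 genes. A call needed an adjusted p under 0.05 and a fold change above 1.5. Unadjusted exact two-sided permutation tests used mean log2 CPM (prior count 2). DESeq2 1.42.0, other scaling, a filter on low counts, covariates and leaving out libraries were alternatives. The scripts were tested on simulated data. Total counts of 19863304 to 21510054 per library set the depth.

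The genes and lists were chosen with earlier results of these data known. Genes named from a list were all those called, or, above 6, the 3 highest and 3 lowest log2 fold changes among them. Genes of special interest beside these were picked after their values were seen. A planned comparison of P450 protein sequences was not made. The values of 1 called gene of a list are not reported here.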

Additional observations from a re-analysis of the deposited data

Results flagged for a closer look

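In 30 groups of 4 to 10 libraries, 1 for each of the 10 genes in each of the 3 groups of that size, the highest or lowest library was compared with its nearest neighbour by Dixon's criterion, which chance meets in about 1 in 20 groups, and 2 libraries met it. Slc1a2 was 120.5 CPM in vehicle-treated control 4, where the next lowest control had 187 CPM. The same library had the lowest Glul (849 CPM), Oat (919.6 CPM), Cyp2e1 (6717 CPM) and Cyp1a2 (162 CPM) and the highest Gls2 (609.8 CPM) and Cdh1 (25.4 CPM) of its group, and a cholangiocyte sum of 33.4 CPM. Cdh1 was 20.9 CPM in FGF21-treated Lmna ADKO 3, where the next highest library had 9.46 CPM. That library had a cholangiocyte sum of 242 CPM, against 50.4 to 93.4 CPM in the other 7 of its group. Their part in these values was not tested.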

How the results depend on the processing

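No paired analysis was possible because no animal number is shared between groups. With vehicle, 5 to 6 of the 10 genes were called when 1 library was left out, the sixth being Axin2 (-0.72) without vehicle-treated Lmna ADKO 2. With FGF21, the count of 5 fell to 1 in the fit of only the compared groups, with the number series as a covariate and among 4-digit animals, and to 3 without the 3 libraries with few reads on long genes. Leaving out 1 library gave 1 to 5, with 1 without FGF21-treated control 2, 2 without control 1, and 3 without control 3 or Lmna ADKO 3. The cause was not tested, beyond the smaller number of libraries in some of these fits.

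Directions reversed for genes that were not called. For Lmna ADKO minus control with vehicle, the number series gave -0.17 for Rhbg and 0.0061 for Cdh1. With FGF21, Glul was -0.10 and Cdh1 -0.0497 without the 3 libraries, and Cdh1 -0.00022 among 4-digit animals. For FGF21 minus vehicle in controls, without the 3 libraries Oat was 0.0232 and Cyp1a2 0.11, with the number series Cyp1a2 was 0.0483 and Rhbg -0.0817, and the difference of mean log2 CPM for Cyp1a2 was 0.0463. In Lmna ADKO, Axin2 was -0.0272 with the number series and -0.16 among 4-digit animals. Leaving out 1 library gave, with vehicle, -0.0183 to 0.29 for Rhbg and -0.47 to 0.0212 for Cdh1; with FGF21, -0.14 to 0.22 for Glul, -0.37 to 0.0809 for Axin2 and -0.15 to 0.56 for Cdh1. For FGF21 minus vehicle it gave -0.26 to 0.0484 for Oat, -0.13 to 0.0888 for Cyp1a2 and -0.19 to 0.0605 for Gls2 in controls, and -0.0031 to 0.12 for Glul and -0.0897 to 0.23 for Axin2 in Lmna ADKO.

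Over all genes, 2033 calls with vehicle became 3623 without the fold threshold. The 690 calls with FGF21 became 344 with only the compared groups, 148 among 4-digit animals, 402 without the 3 libraries and 339 (without FGF21-treated control 3) to 1149 (without FGF21-treated Lmna ADKO 7) leaving out 1. FGF21 minus vehicle gave 13 calls in controls (38 by DESeq2, 0 with the number series, 3 to 26 leaving out 1) and 0 in Lmna ADKO (15 by DESeq2, 2 among 4-digit animals, 61 without FGF21-treated Lmna ADKO 3). The interaction gave 1 (13 by DESeq2, 0 to 5 in the other fits). Rhbg, Axin2 and Cdh1 had the fewest reads, and their intervals were the widest.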

Other observations

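Other cell types were read from short marker lists. With vehicle, 2 of 7 endothelial markers and 1 of 4 stellate cell markers were called higher in Lmna ADKO, namely Lyve1 (log2 fold change 1.93), Vwf (0.68) and Lrat (0.74), of which Vwf (0.76) was not called with the number series as a covariate. Of the 4 hepatocyte markers, Serpina1c was called lower (-0.91, adjusted p = 0.000716), and with that covariate too (-0.99). Among the others, 0 of 4 macrophage and 0 of 4 lymphocyte markers were called by edgeR or DESeq2, with 2 and 1 at an unadjusted p under 0.05. Summed markers of central vein and sinusoidal endothelium ran from 223 to 279.8 CPM in vehicle-treated controls and from 216 to 273 CPM in vehicle-treated Lmna ADKO, and the ranges overlapped. The sum mixes both kinds of endothelium, so it cannot show the central vein cells alone. Of the 6 cholangiocyte markers, 2 were called higher with vehicle, and none was at 0 throughout a group. Of 3 pancreatic acinar markers with counts, 1 was called lower in Lmna ADKO with vehicle.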
